A study of Mus musculus with 28 samples.

Results

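The cathepsins are proteases of the lysosome, and 9 of their genes (Ctsa, Ctsb, Ctsc, Ctsd, Ctsh, Ctsk, Ctsl, Ctss and Ctsz) were followed through 28 RNA-seq libraries of mouse 3LL cells, a Lewis lung carcinoma line, and of tumors grown from them. The members were chosen by name: each was the row that carries the gene's symbol, so that there were 9 of the 18509 rows with a symbol and of 43143 rows in all. WT cells, KEAP1-KO cells and KEAP1-NRF2 double knockout (DKO) cells were sequenced in culture, with 4 libraries each. The tumors were WT tumors and KEAP1-KO tumors of Experiment A, and KEAP1-KO tumors and DKO tumors of Experiment B, again with 4 libraries each.

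In both experiments the tumors were syngeneic grafts under the skin of 6-week-old male albino C57BL/6 mice with an intact immune system, and they were removed after 10 days. Each mouse carried a tumor on either flank. In Experiment A the left flank held WT cells and the right flank KEAP1-KO cells, whereas in Experiment B the left flank held KEAP1-KO cells and the right flank DKO cells. Genotype and flank therefore cannot be told apart within an experiment. The KEAP1-KO line was made by CRISPR-Cas9 cutting of Keap1 and grown from 1 colony, and the DKO line was made from it by cutting Nfe2l2, the gene of NRF2, so all KEAP1-KO and DKO groups share the Keap1 deletion and a clonal origin. Differences between genotypes and differences between clones cannot be told apart. The labels number the libraries of a group but do not say that they came from separate cultures or mice, and p-values then measure the spread between these libraries only.

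Cathepsins are made as inactive precursors, carried to the lysosome by mannose 6-phosphate receptors and activated there at acid pH. Most are cysteine proteases (Ctsb, Ctsc, Ctsh, Ctsk, Ctsl, Ctss and Ctsz), Ctsd is an aspartic protease, and Ctsa is a serine carboxypeptidase that also holds neuraminidase and beta-galactosidase in a stable complex. Ctss is typical of macrophages and other antigen-presenting cells, where it trims the invariant chain from MHC class II, and Ctsk is the collagen-cutting protease of osteoclasts. KEAP1 targets the transcription factor NRF2 for degradation, and the study asked what NRF2 activation in the cancer cells does to the immune cells in the tumor.

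Values are log2(normalized count + 4), so a row without reads stands at 2. Only Ctsk, Ctss and Ctsz have a row for the whole gene. The other symbols stand on a row of 1 transcript, which is a retained-intron transcript for Ctsb and Ctsd and a short protein-coding transcript for Ctsa, Ctsc, Ctsh and Ctsl. Another 20 rows without a symbol belong to these genes by their transcript identifiers. Levels are therefore compared between groups and not between genes. The libraries held 4222380 to 7524278 reads (median 5619794), with 4222380 to 6048381 in tumors and 5808966 to 7524278 in cells. Keap1 lay at 8.78 to 8.98 in WT tumors and at 7.13 to 7.86 in the other tumors, and at 9.35 to 9.56 in WT cells against 7.30 to 7.65 in the edited cells. The Nfe2l2 row is a processed transcript that did not separate DKO libraries from the others. Nqo1, a standard NRF2 target, lay at 5.25 to 6.25 in DKO tumors, below all other tumors, and at 6.65 to 6.86 in DKO cells, below all other cells. Ptprc, which encodes the leukocyte antigen CD45, lay at 6.27 or above in every tumor and at 2.56 or below in every cell library.

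The plot of all members by library shows the 3 shapes among them: Ctsc, Ctsh and Ctss near the floor in cells and lower in KEAP1-KO tumors than in WT tumors, Ctsk spread widely within KEAP1-KO tumors, and Ctsz at nearly the same level everywhere except WT cells.

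**Figure D1:**
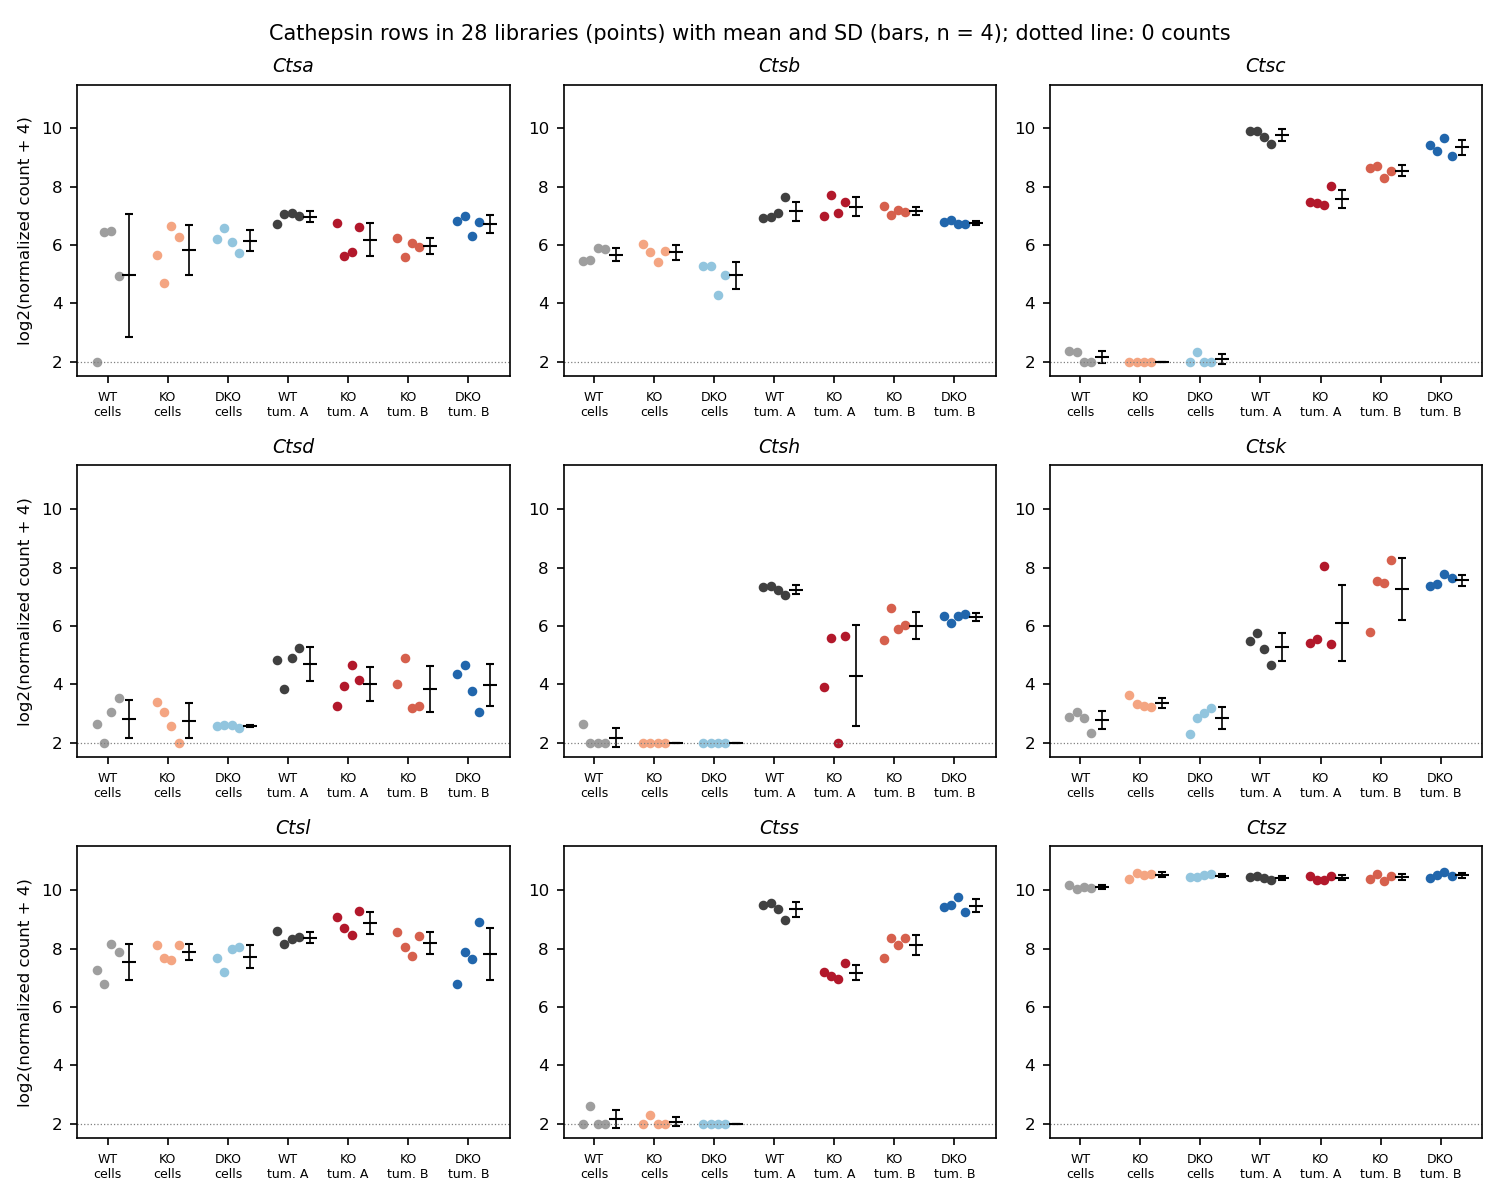
Level of each cathepsin row in each of the 28 libraries, as log2(normalized count + 4), by group, with 1 panel for each gene. Points are libraries and bars are the group mean with SD (n = 4). Ctss lies between 8.97 and 9.56 in WT tumors and between 6.95 and 7.52 in KEAP1-KO tumors of Experiment A. A value of 2 means no reads.

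The first comparison asked how the cathepsins differed between KEAP1-KO and WT tumors of Experiment A. Ctsc, Ctss, Ctsh and Ctsa were lower in KEAP1-KO tumors, and the other 5 members did not pass the test. By limma with Benjamini-Hochberg adjustment over all rows and a threshold of 0.05, 4 of 9 members were called, all 4 of them lower, beside 13.1% of the 34215 rows tested. The median difference over the 9 members was -0.70, beside -0.03 over all rows tested.

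Ctss, the antigen-presentation protease, stood at 9.51, 9.56, 9.35 and 8.97 in the 4 WT tumors. In the KEAP1-KO tumors it stood at 7.20, 7.05, 6.95 and 7.52. Every KEAP1-KO tumor was below every WT tumor, with 111 to 184 reads against 586 to 805. The log2 difference was -2.17 (SE 0.17, 95% interval -2.53 to -1.80, adjusted p = 4.2e-07 by limma).

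Ctsc, the dipeptidyl peptidase that activates the granule serine proteases of neutrophils, mast cells and cytotoxic lymphocytes, was at 9.91, 9.92, 9.72 and 9.48 in WT tumors. It was at 7.46, 7.42, 7.36 and 8.03 in KEAP1-KO tumors. These ranges did not overlap either, and the fourth KEAP1-KO tumor was the highest of its group for Ctsc as for Ctss. Ctsc differed by -2.19 (SE 0.16, 95% interval -2.53 to -1.85, limma adjusted p = 1.7e-07).

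Ctsh, an aminopeptidase, stood at 7.34, 7.37, 7.23 and 7.06 in WT tumors and at 3.92, 5.58, 2 (no reads) and 5.66 in KEAP1-KO tumors. The WT tumors were tight and the KEAP1-KO tumors were widely spread, with 0 to 48 reads. The difference was -2.96 (SE 0.57, 95% interval -4.16 to -1.76, limma adjusted p = 0.0020). Part of this spread lay in how reads were divided between transcripts of Ctsh. KEAP1-KO tumor 3, with 0 reads on the Ctsh row, had 33 reads on Ctsh-202, another transcript of the gene, and KEAP1-KO tumor 1 had 10 and 11. Summed over its 5 rows, Ctsh was at 7.27 to 7.56 in WT tumors and at 5.04 to 5.69 in KEAP1-KO tumors, a difference of -2.06 (SE 0.20, limma adjusted p = 8.1e-07).

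Ctsa was at 6.71, 7.06, 7.10 and 7.01 in WT tumors and at 6.75, 5.62, 5.76 and 6.62 in KEAP1-KO tumors. The ranges overlapped, since the first KEAP1-KO tumor was above the lowest WT tumor. The difference of -0.78 (SE 0.24, limma adjusted p = 0.041) passed by a narrow margin. Leaving out 1 library at a time ended the call in 5 of 8 cases, namely without WT tumor 2, 3 or 4 (adjusted p of 0.094, 0.098 and 0.076) and without KEAP1-KO tumor 2 or 3 (0.13 and 0.11). The call also ended without a filter on low values (limma adjusted p = 0.056), with quantile normalization (0.051), with median centring (0.058) and with a block on the replicate number (0.097). Over all rows of Ctsa the difference was -0.68 (SE 0.11, limma adjusted p = 2.3e-04).

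The broad endoproteases and the collagenase gave other values. Ctsb, of which the row is a retained-intron transcript, differed by 0.16 (95% interval -0.19 to 0.52) and Ctsl by 0.51 (95% interval -0.19 to 1.21). Ctsd differed by -0.70 (95% interval -1.65 to 0.25), from a row with few reads. Ctsz, a carboxypeptidase, stood at 10.34 to 10.47 in WT tumors and at 10.35 to 10.50 in KEAP1-KO tumors, a difference of 0.01 with an interval of -0.13 to 0.15. Ctsk stood at 5.50, 5.77, 5.21 and 4.66 in WT tumors and at 5.42, 5.55, 8.04 and 5.39 in KEAP1-KO tumors. In KEAP1-KO tumor 3, with 269 reads against 35 to 39 in the other 3, Ctsk stood apart. With it Ctsk differed by 0.82 (95% interval -0.35 to 1.99, limma adjusted p = 0.41), and without it by 0.17 (limma adjusted p = 0.86).

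Markers of leukocytes moved with Ctss, Ctsc and Ctsh. All 13 macrophage markers were lower in KEAP1-KO tumors of Experiment A, among them Fcgr1 by -2.78 and Itgam by -2.46, and their summed normalized count was 3687 to 4525 against 8708 to 12222 in WT tumors. Of the neutrophil markers 3 of 4 with a row were lower (summed count 111 to 386 against 411 to 1718), as were 2 of 7 fibroblast markers (1961 to 4776 against 4814 to 12057). Of 4 dendritic cell markers Itgax was lower (-0.83), and their sum was 209 to 287 against 349 to 417. In cultured cells, without host cells, this sum was already 107 to 144, with Itgax at group means of 6.62 to 6.73. All 4 general leukocyte markers were lower as well, with Ptprc at -2.32, and their sum was 447 to 524 against 2155 to 2552. The 5 lymphocyte markers with a row had low sums that overlapped, at 18.5 to 25.6 against 22.9 to 67.4. In RNA from whole tumors, fewer cells of a type and less RNA per cell cannot be told apart, and the part of these cells in the cathepsin differences was not tested.

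The upstream sequences of Ctss, Ctsc, Ctsk and Ctsz are shown because these 4 genes carry the contrasting patterns: the first pair fell together in KEAP1-KO tumors, Ctsk is the next gene to Ctss on chromosome 3 and followed another course, and Ctsz rose in KEAP1-KO cells, described further on. Sequences are the 250 bases before the start of each gene in RefSeq on GRCm38.p6, 5′ to 3′ on the gene's strand. They cover chr3:95526536-95526785 (plus strand) for Ctss, chr7:88277835-88278084 (plus) for Ctsc, chr3:95498960-95499209 (plus) for Ctsk and chr2:174439040-174439289 (minus) for Ctsz. Capitals mark matches on either strand to 4 short patterns: GAGGAA, bound by PU.1 and other ETS factors of myeloid cells; GAAA-NN-GAAA, a pattern of interferon response elements; TGACNNNGC, the core of the antioxidant response element that NRF2 binds; and CACGTG, the E-box core bound by TFEB and related lysosome regulators.
Ctss: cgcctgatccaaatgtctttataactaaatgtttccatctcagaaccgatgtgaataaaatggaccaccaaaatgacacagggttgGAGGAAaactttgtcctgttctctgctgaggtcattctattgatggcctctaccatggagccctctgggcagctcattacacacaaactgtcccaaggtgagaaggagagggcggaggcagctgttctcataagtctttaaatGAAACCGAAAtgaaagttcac
Ctsc: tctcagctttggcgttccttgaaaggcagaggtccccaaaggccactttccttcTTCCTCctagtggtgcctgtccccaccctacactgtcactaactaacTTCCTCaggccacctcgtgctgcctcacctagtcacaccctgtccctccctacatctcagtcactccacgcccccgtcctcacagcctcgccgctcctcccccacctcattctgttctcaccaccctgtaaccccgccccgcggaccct
Ctsk: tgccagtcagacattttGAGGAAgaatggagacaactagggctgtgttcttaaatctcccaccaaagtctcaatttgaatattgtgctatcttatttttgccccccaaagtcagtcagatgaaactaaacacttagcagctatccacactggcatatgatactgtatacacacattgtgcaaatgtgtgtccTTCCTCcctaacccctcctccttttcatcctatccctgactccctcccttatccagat
Ctsz: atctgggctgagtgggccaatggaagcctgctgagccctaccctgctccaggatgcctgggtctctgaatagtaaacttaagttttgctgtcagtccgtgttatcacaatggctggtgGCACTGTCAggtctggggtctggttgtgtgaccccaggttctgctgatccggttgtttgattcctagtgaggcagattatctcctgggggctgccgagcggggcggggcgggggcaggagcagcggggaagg
The Ctss window holds GAGGAA on its own strand, with its first base 164 bases before the start, and GAAACCGAAA at 21 bases. The Ctsc window holds GAGGAA on the opposite strand, read as TTCCTC, at 196 and at 149 bases. The Ctsk window also holds GAGGAA, at 233 bases on its own strand and at 58 bases on the opposite strand, so this match does not separate Ctsk from Ctss and Ctsc. In the Ctsz window there is TGACNNNGC on the opposite strand, read as GCACTGTCA, at 132 bases, and the Ctsd window holds this pattern as well, at 62 bases on its own strand and at 47 on the opposite strand. Of 32851 RefSeq windows of this length, 23.3% hold GAGGAA, 2.98% GAAA-NN-GAAA, 10.2% TGACNNNGC and 6.02% CACGTG on either strand, so that GAGGAA in particular is common. CACGTG was found in windows of Ctsd, Ctsl and Ctsa. A match describes the letters of the window and not a bound site. Ctsb and Ctsh had no matched window, and 7 of 9 members were matched.

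The second comparison asked whether deleting Nfe2l2 in KEAP1-KO cells changed the cathepsins of the tumors. In Experiment B, Ctss and Ctsc were higher in DKO than in KEAP1-KO tumors. Of 9 members 2 were called, both higher, beside 8.86% of rows tested, and the median difference over members was 0.28.

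Ctss rose from 7.67, 8.38, 8.11 and 8.35 in KEAP1-KO tumors to 9.41, 9.49, 9.75 and 9.25 in DKO tumors. Reads were 200 to 353 and 618 to 1061, with no overlap of the groups. The difference was 1.35 (SE 0.17, 95% interval 0.98 to 1.72, limma adjusted p = 9.5e-05). Ctsc stood at 8.64, 8.72, 8.31 and 8.54 in KEAP1-KO tumors and at 9.42, 9.23, 9.68 and 9.06 in DKO tumors, again without overlap. Its difference was 0.79 (SE 0.16, 95% interval 0.45 to 1.13, limma adjusted p = 0.0043).

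The symbol rows of Ctsa and Ctsb did not pass the test although their groups did not overlap. Ctsa was at 6.23, 5.58, 6.06 and 5.95 in KEAP1-KO tumors and at 6.81, 6.98, 6.29 and 6.79 in DKO tumors, a difference of 0.77 (95% interval 0.26 to 1.27, limma adjusted p = 0.059). Without DKO tumor 3 the adjusted p of Ctsa was 0.038. Over all rows of Ctsa the groups overlapped, at 7.45 to 7.66 in KEAP1-KO and 7.60 to 7.85 in DKO tumors. That difference was 0.22 (SE 0.11, limma adjusted p = 0.21). Ctsb was at 7.34, 7.02, 7.20 and 7.13 against 6.79, 6.86, 6.73 and 6.71, a difference of -0.40 (95% interval -0.76 to -0.04, limma adjusted p = 0.18).

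Ctsh differed by 0.28 with a wide interval of -0.92 to 1.49, from 5.52 to 6.62 in KEAP1-KO tumors to 6.11 to 6.41 in DKO tumors. Ctsk was at 5.78, 7.55, 7.46 and 8.27 in KEAP1-KO tumors and at 7.39, 7.44, 7.79 and 7.66 in DKO tumors. The first KEAP1-KO tumor was far below the other 3, and without it the difference in Ctsk changed from 0.30 to -0.19, neither called. Ctsl, Ctsd and Ctsz differed by -0.38, 0.12 and 0.06, and none passed the test. With 1 library left out Ctsl ranged from -0.75 (without DKO tumor 4) to -0.04 (without DKO tumor 1) and Ctsd from -0.11 (without DKO tumor 2) to 0.48 (without KEAP1-KO tumor 2), none of them called.

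Of the macrophage markers 7 of 13 were higher in DKO than in KEAP1-KO tumors, with Fcgr1 at 1.83 and Itgam at 1.39, and their summed count was 8775 to 11930 against 6149 to 7000. All 4 leukocyte markers were higher, with sums of 1453 to 2322 against 741 to 986. Of 7 fibroblast markers 3 were higher too, with sums of 10750 to 14597 against 2811 to 3527. Of 4 dendritic cell markers Flt3 was lower (-1.53) and none was higher, and their sums overlapped (241 to 255 against 211 to 273). The part of these cells in the rise of Ctss and Ctsc was not tested.

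**Figure D2:**
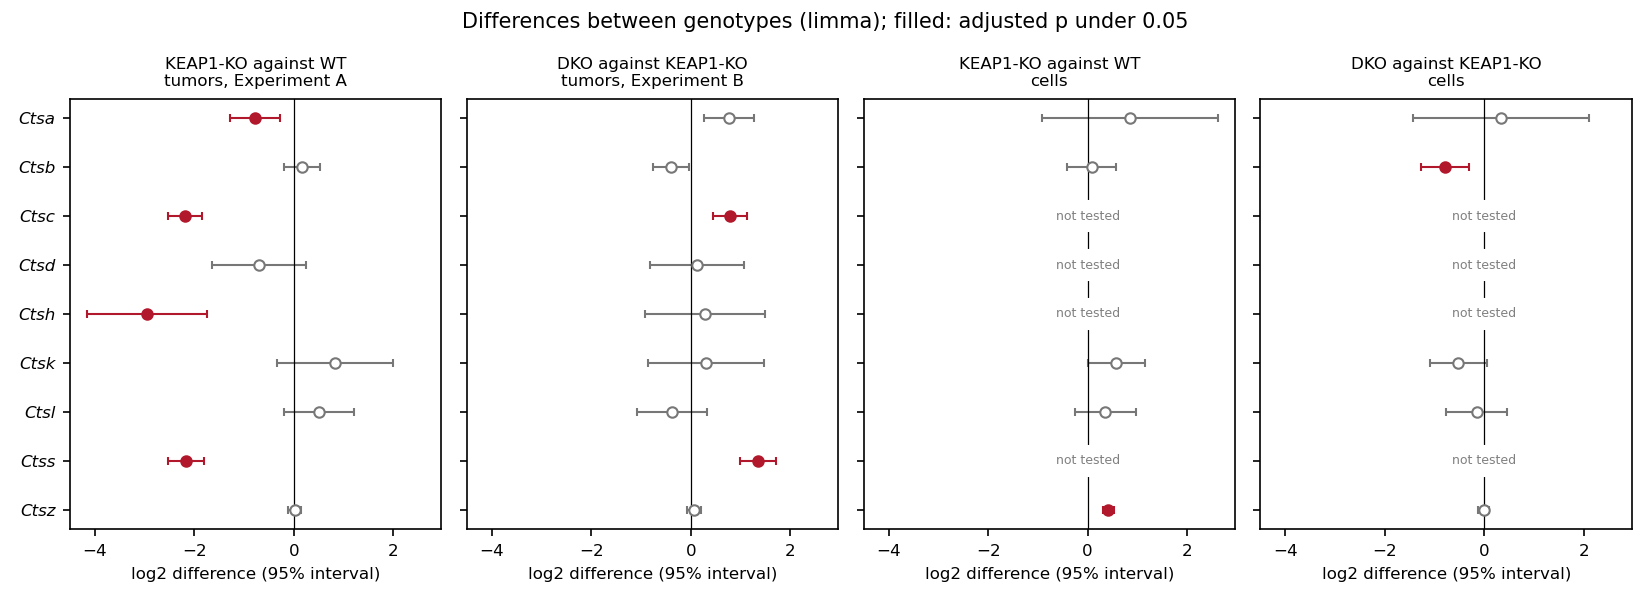
Difference of each cathepsin row in log2 units, with its 95% interval from limma, for KEAP1-KO against WT tumors, DKO against KEAP1-KO tumors, KEAP1-KO against WT cells and DKO against KEAP1-KO cells (n = 4 a group). Filled points passed an adjusted p of 0.05. Ctsc and Ctss lie at -2.19 and -2.17 in the first comparison and at 0.79 and 1.35 in the second.

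KEAP1-KO tumors were part of both experiments, which allowed the same genotype to be compared across them. Ctsc and Ctss were higher in KEAP1-KO tumors of Experiment B than of Experiment A, by 0.98 (95% interval 0.64 to 1.32, limma adjusted p = 0.029) and by 0.95 (95% interval 0.58 to 1.31, limma adjusted p = 0.047). These 2 of 9 members stood among 0.164% of rows called. The groups did not overlap for either gene. Each call was lost in 6 of 8 fits that left out 1 library, with adjusted p up to 0.10 for Ctsc and 0.17 for Ctss, and in the fits without a filter and with limma-voom. The macrophage marker sum was 6149 to 7000 in Experiment B and 3687 to 4525 in Experiment A, and 6 of 13 macrophage markers were called higher. Experiment, flank and the genotype of the tumor on the other flank changed together here and cannot be told apart. Ctsk differed by 1.16 (95% interval -0.01 to 2.33, limma adjusted p = 0.65), and by 1.81 (limma adjusted p = 0.096) without KEAP1-KO tumor 3 of Experiment A. Ctsh differed by 1.72 (95% interval 0.52 to 2.93, limma adjusted p = 0.41), and by 0.96 without that library.

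DKO tumors were set against WT tumors across the experiments, so that genotype and experiment cannot be told apart in this comparison either. Ctsk was the member called, at 7.39, 7.44, 7.79 and 7.66 in DKO tumors against 5.50, 5.77, 5.21 and 4.66 in WT tumors. The ranges did not overlap, with 149 to 268 reads against 25 to 53, and the difference was 2.29 (SE 0.55, 95% interval 1.12 to 3.45, limma adjusted p = 0.013). This was 1 of 9 members beside 10.6% of rows. The call stood when any of the 8 libraries was left out, with adjusted p from 0.020 to 0.042. Ctss differed by 0.13 (95% interval -0.24 to 0.50), Ctsc by -0.41 (95% interval -0.75 to -0.07, limma adjusted p = 0.12) and Ctsh by -0.95 (95% interval -2.16 to 0.25). Ctsl differed by -0.57 (limma adjusted p = 0.33), and by -0.94 (limma adjusted p = 0.038) without DKO tumor 4. On the sum over all its rows, Ctsh was lower in DKO than in WT tumors by -0.85 (limma adjusted p = 0.0052). Ptprc was lower in DKO than in WT tumors by -0.49, 1 of 13 macrophage markers (Aif1) was lower, and none of 4 osteoclast markers passed the test, with Acp5 at 1.29 (limma adjusted p = 0.13), Dcstamp at 1.30 (limma adjusted p = 0.059), Nfatc1 at 0.19 (limma adjusted p = 0.45) and Ocstamp at -0.41 (limma adjusted p = 0.32). Of 7 fibroblast markers 3 were higher, namely Col3a1 (1.93), Lum (1.64) and Dcn (0.93), and Pdgfrb was lower (-0.82), with sums of 10750 to 14597 in DKO and 4814 to 12057 in WT tumors. Of 4 neutrophil markers 3 were lower, namely S100a9 (-2.23), Csf3r (-1.10) and Cxcr2 (-0.88), with sums of 223 to 294 against 411 to 1718. Of 4 dendritic cell markers Flt3 (-1.65) and Itgax (-0.58) were lower, with sums of 241 to 255 against 349 to 417. The 1 muscle marker tested, Acta1, was higher by 2.39. The part of these cells in the difference of Ctsk was not tested.

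In cultured cells, where no host cells are present, 5 members had enough reads to be tested. Ctsc, Ctsh and Ctss had 0 to 2 reads in each of the 12 cell libraries, and Ctsd had 0 to 7. Ctsz, Ctsl, Ctsa, Ctsb and, at a low level, Ctsk were detected. The macrophage marker sum was 10.3 to 44.2 in WT cells, 111 to 123 in KEAP1-KO cells and 54.6 to 58.9 in DKO cells. In KEAP1-KO cells it lay mostly on Cd68, and 6 of the 13 markers had no reads. Cd68 had means of 4.45 in WT, 6.83 in KEAP1-KO and 5.57 in DKO cells. It was higher in KEAP1-KO than in WT cells by 2.38 (limma adjusted p = 1.8e-05). In DKO against KEAP1-KO cells it was lower by -1.26 (limma adjusted p = 0.0045). The defining marker Adgre1 was at 0 in all 12 cell libraries.

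Ctsz was higher in both edited lines than in WT cells. It stood at 10.19, 10.05, 10.11 and 10.09 in WT cells, at 10.40, 10.60, 10.53 and 10.57 in KEAP1-KO cells and at 10.47, 10.46, 10.53 and 10.56 in DKO cells. The WT cells were below all 8 other libraries, while KEAP1-KO and DKO cells overlapped. Ctsz differed by 0.41 between KEAP1-KO and WT cells (SE 0.05, 95% interval 0.30 to 0.52, limma adjusted p = 9.3e-05), the 1 call among 5 members tested, beside 15.5% of 29744 rows. The difference between DKO and WT cells was 0.39 (95% interval 0.28 to 0.50, limma adjusted p = 1.2e-04). Between DKO and KEAP1-KO cells Ctsz differed by -0.02 with an interval of -0.13 to 0.09.

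The Ctsb row was lower in DKO cells than in either other line by a narrow margin that most alternatives did not keep. It was at 5.46, 5.49, 5.89 and 5.85 in WT cells, at 6.03, 5.77, 5.41 and 5.78 in KEAP1-KO cells and at 5.29, 5.27, 4.30 and 4.97 in DKO cells. The difference from KEAP1-KO cells was -0.79 (SE 0.22, limma adjusted p = 0.047), the 1 call of 5 members beside 8.83% of rows. The difference from WT cells was -0.71 (limma adjusted p = 0.046), which with Ctsz made 2 calls of 5 beside 17.7% of rows. Leaving out 1 library ended the first in 5 of 8 cases and the second in 6 of 8. The first was also lost with a pseudocount of 1, without a filter, with quantile normalization, with centring and with the replicate block (limma adjusted p of 0.051 to 0.076). The second was lost without a filter, with quantile normalization, centring, voom and the block (0.052 to 0.073) and over both rows of Ctsb, where the difference was -0.09.

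Ctsk was at 2.89, 3.06, 2.86 and 2.34 in WT cells, at 3.63, 3.34, 3.27 and 3.23 in KEAP1-KO cells and at 2.32, 2.84, 3.03 and 3.19 in DKO cells. KEAP1-KO cells lay above both other lines without overlap, from 6 to 9 reads a library. Neither difference passed the test, at 0.58 from WT cells (95% interval 0.01 to 1.15, limma adjusted p = 0.18) and -0.52 for DKO against KEAP1-KO cells (limma adjusted p = 0.30). Ctsl and Ctsa overlapped between the 3 lines. The Ctsa row varied most within a line, from 0 to 79 reads in WT cells. Summed over its 10 rows, Ctsa was at 6.71 to 7.03 in WT cells. The sum was at 6.24 to 7.20 in KEAP1-KO cells and at 6.60 to 6.89 in DKO cells.

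Ctsb had a second and more abundant row, the retained-intron transcript Ctsb-202. It stood at 9.77, 9.90, 9.87 and 9.93 in WT cells, at 10.46, 10.80, 10.67 and 10.80 in KEAP1-KO cells, and at 9.70, 9.90, 9.73 and 9.88 in DKO cells. All KEAP1-KO libraries were above all others, and WT and DKO cells overlapped. Ctsb-202 was higher in KEAP1-KO than in WT cells by 0.81 (SE 0.08, limma adjusted p = 1.3e-05) and lower in DKO than in KEAP1-KO cells by -0.88 (SE 0.08, limma adjusted p = 1.0e-05). In tumors it stood at 10.64, 10.55, 10.71 and 10.80 in WT and at 10.97, 11.08, 10.88 and 11.17 in KEAP1-KO tumors of Experiment A, a difference of 0.35 (SE 0.10, limma adjusted p = 0.025). In Experiment B it overlapped, at 10.76 to 10.96 in KEAP1-KO and 10.43 to 10.95 in DKO tumors, and the difference of -0.25 did not pass (limma adjusted p = 0.14). The sum of both Ctsb rows gave the same calls in cells, with 0.79 for KEAP1-KO against WT cells (limma adjusted p = 2.5e-06), -0.88 for DKO against KEAP1-KO cells (limma adjusted p = 1.4e-06) and -0.09 for DKO against WT cells (limma adjusted p = 0.40).

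Among the other further rows, Ctsl-203, a protein-coding transcript of Ctsl, was at 6.81, 7.73, 8.23 and 7.64 in DKO tumors and at 8.69, 8.48, 8.81 and 9.02 in KEAP1-KO tumors of Experiment B. The groups did not overlap and the difference was -1.15 (SE 0.23, limma adjusted p = 0.0048). Summed over its rows Ctsl differed by -0.72 (limma adjusted p = 0.20), so that the 2 readouts of Ctsl part. Ctsh-203, Ctsa-206 and Ctsc-205, all retained-intron transcripts, were lower in KEAP1-KO tumors than in WT tumors of Experiment A by -1.88 (limma adjusted p = 4.5e-04), -1.60 (limma adjusted p = 0.025) and -1.65 (limma adjusted p = 0.024).

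**Figure D3:**
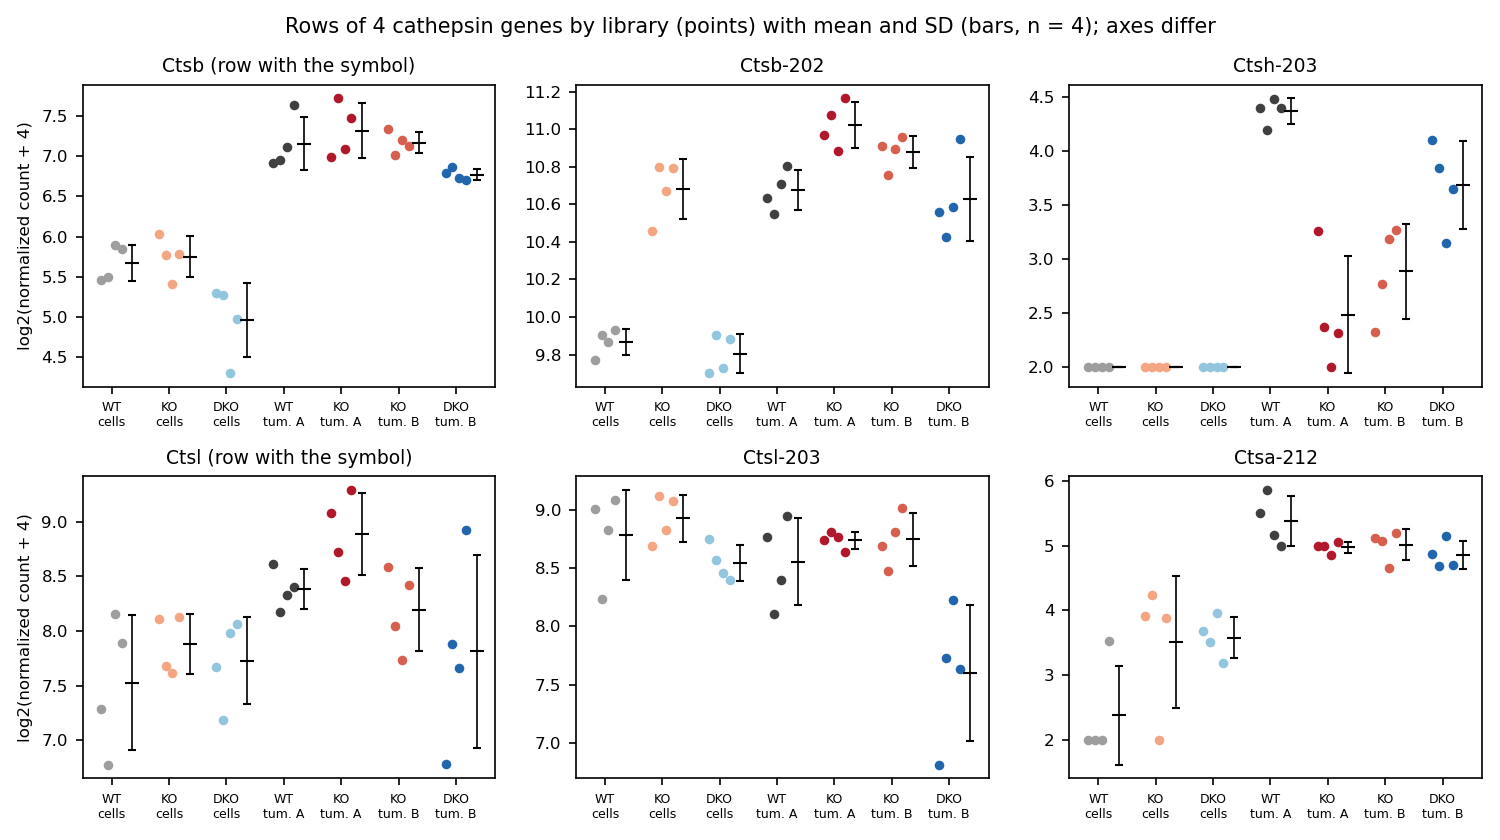
Rows of Ctsb, Ctsh, Ctsl and Ctsa as log2(normalized count + 4) in the 28 libraries, by group, with group mean and SD (n = 4) and with a vertical axis of its own in each panel. Ctsb-202 lies at 10.46 to 10.80 in KEAP1-KO cells and at 9.93 or below in WT and DKO cells, and the Ctsb row that carries the symbol does not show this.

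The tumors were next compared with the cells they were grown from. Ctsc, Ctsh and Ctss had 0 to 2 reads over the 4 cell libraries of each genotype. The 4 WT tumors held 835 to 1069 reads of Ctsc, and the 4 WT cell libraries held 2 in all, a ratio of mean normalized counts of 1565 with a counting interval of 439 to 13108. For Ctss that ratio was 1213 (331 to 9881). In KEAP1-KO cells Ctsc had no reads, and against a floor of 3 reads over the group it was at least 277-fold higher in Experiment A and at least 547-fold higher in Experiment B. Ctsh was at least 37.3-fold and at least 92.6-fold higher, respectively, and at least 102-fold higher in DKO tumors than in DKO cells.

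For Ctsk the ratio of tumors to cells was 12.1 in WT (counting interval 6.78 to 24.3), 14.9 in KEAP1-KO of Experiment A, 27.9 in KEAP1-KO of Experiment B and 55.6 in DKO (32.4 to 99.5). The value in KEAP1-KO of Experiment A leaned on KEAP1-KO tumor 3. Without that tumor its log2 difference fell from 2.73 to 2.09, below the 2.50 of WT. On the log2 scale the KEAP1 difference in tumors minus that in cells was 0.24 for Ctsk (95% interval -1.10 to 1.58, limma adjusted p = 0.91), and that of the NRF2 co-deletion 0.83 (95% interval -0.52 to 2.17, limma adjusted p = 0.66), so neither step passed the test. Without KEAP1-KO tumor 3 of Experiment A the KEAP1 term took the other sign, at -0.41. The Ctsb row was higher in tumors by 2.98, 3.15, 2.79 and 3.73 times in the same order. Over both rows of Ctsb, of which Ctsb-202 is the more abundant, the log2 differences were smaller, at 0.85, 0.40, 0.26 and 0.87. Ctsz was near parity, at 1.24, 0.937, 0.947 and 1.004 times. By limma all 9 members were called higher in WT tumors than in WT cells, beside 38.8% of 37246 rows. For KEAP1-KO tumors of Experiment A the count was 7 of 9 beside 39.6%, for those of Experiment B 6 of 9 beside 38.8%, and for DKO tumors 6 of 9 beside 43.5%, and none was lower. Ctsc, Ctsd, Ctsh and Ctss passed the filter on low values through the tumors alone, so these counts are a description. Ctsd, from few reads, was no longer called in KEAP1-KO A, KEAP1-KO B and DKO with quantile normalization (limma adjusted p of 0.053, 0.12 and 0.065) or with median centring (0.063, 0.15 and 0.057). Leaving out 1 library ended the call of Ctsd in 2 of 8 fits in KEAP1-KO A and in 4 of 8 in KEAP1-KO B. Ctsl in WT was not called with centring (0.29) or over all its rows (0.17), nor in 5 of 8 fits that left out 1 library (up to 0.17). In KEAP1-KO A Ctsl was lost with centring (0.066), over all its rows (0.059) and without KEAP1-KO tumor 4 (0.057). With limma-voom Ctsk in WT (0.12) and Ctsh in KEAP1-KO A (0.085) were not called, nor was Ctsd in KEAP1-KO B (0.082) and DKO (0.074). The Ctsa row was not called in KEAP1-KO A, KEAP1-KO B and DKO. Over all its rows Ctsa was called higher there, at 0.59 (limma adjusted p = 8.0e-04), 0.80 (2.5e-05) and 1.04 (4.1e-07). Centring each library on its median moved the tumor-against-cell differences by -0.39, -0.23, -0.27 and -0.36 in the same order of genotypes. Ctsz was at 0.31 in WT and became -0.09, at 0.004 in DKO and became -0.36, and at -0.09 and -0.08 in KEAP1-KO A and B and became -0.33 and -0.35, of which the last 3 were then called lower. With quantile normalization Ctsz was called higher in both KEAP1-KO comparisons, at 0.47 and 0.51, and in DKO at 0.75, so that its direction against cells depends on the scaling.

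The KEAP1 difference in tumors was then set against the KEAP1 difference in cells, as an interaction over all 28 libraries. Of 9 members 4 were called, beside 5.38% of rows: Ctsh at -2.80 (limma adjusted p = 0.0091), Ctss at -2.08 (limma adjusted p = 2.1e-06), Ctsc at -2.01 (limma adjusted p = 6.8e-07) and Ctsz at -0.40 (limma adjusted p = 0.0022). For Ctsh, Ctss and Ctsc the cells stood at the floor and could not show a fall, so the interaction restates the tumor difference, and with limma-voom these calls were lost (adjusted p of 0.69, 0.77 and 0.85). Ctsh was also not called with a pseudocount of 1 (limma adjusted p = 0.081). Ctsz was measured well in both, with 0.41 in cells and 0.01 in tumors, and its interaction stood at -0.24 (limma adjusted p = 0.10) after median centring. For the NRF2 co-deletion the interaction called 1 of 9 members beside 3.67% of rows, Ctss at 1.42 (limma adjusted p = 6.2e-04). Ctss had 1 read in all in KEAP1-KO cells and none in DKO cells, so this too restates the tumor difference, and with limma-voom the call was lost (adjusted p = 0.81). Ctsc was at 0.71 (limma adjusted p = 0.073). Ctsb-202 was called in both interactions, at -0.46 (limma adjusted p = 0.033) and 0.63 (limma adjusted p = 0.0043), its genotype differences being larger in cells than in tumors.

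The levels of each member over the 7 groups, by their means, ran as follows. Ctss was highest in DKO tumors (9.48 ± 0.21, SD, n = 4) and WT tumors (9.35 ± 0.27), which overlapped, followed by KEAP1-KO tumors of Experiment B (8.13 ± 0.33) and of Experiment A (7.18 ± 0.25), each apart from the next. Ctsc ran WT tumors (9.76 ± 0.21), DKO tumors (9.35 ± 0.26), KEAP1-KO tumors B (8.55 ± 0.18) and A (7.57 ± 0.31), where again WT and DKO tumors overlapped and the others did not. Ctsk had another order, with DKO tumors first (7.57 ± 0.19), then KEAP1-KO tumors B (7.26 ± 1.05) and A (6.10 ± 1.30) and WT tumors (5.28 ± 0.48), each overlapping with its neighbour. KEAP1-KO cells (3.37 ± 0.18) were apart from the tumors and from the other 2 cell lines. For Ctsh, WT tumors (7.25 ± 0.14) stood apart at the top and the remaining neighbours overlapped. Ctsa, Ctsd and Ctsl had no neighbours without overlap. Ctsb fell into tumors with KEAP1 alone deleted or WT (7.16 to 7.32), DKO tumors (6.77 ± 0.07), WT and KEAP1-KO cells (5.67 and 5.75) and DKO cells (4.96 ± 0.46), apart from each other.

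The members' likeness to other genes was described by Pearson's r over the 16 tumors, which share 4 groups and 2 experiments, among 15503 rows with a symbol. Ctss was most like C5ar1 (0.989), with Itgam at 0.985, and Ctsc most like Fcer1g (0.988), Sdc3 (0.985) and Mpeg1 (0.983). C5ar1 and Itgam encode a complement receptor and an integrin of myeloid cells, and Fcer1g and Mpeg1 an Fc receptor chain and a macrophage pore protein. Ctsh was most like Clec4n (0.923), a C-type lectin of myeloid cells, Rhoh (0.917) and Tmem86a (0.910). Ctsc and Ctss had an r of 0.96 with each other, and Ctsh of 0.82 and 0.77 with them.

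Ctsk had an r of 0.10 with Ctss, its neighbour on the chromosome, and of -0.09 with Ctsc. It was most like Acp5 (0.944), the acid phosphatase of osteoclasts and activated macrophages, Mmp9 (0.904), a gelatinase, and Atp6v0d2 (0.901), a subunit of the proton pump. These 3 rows were chosen for their likeness to Ctsk over the same tumors, KEAP1-KO tumor 3 of Experiment A included, so that a shared high value there is a description. Acp5 was at 8.13 there and at 5.40 to 5.63 in the other 3, Mmp9 at 9.53 against 7.04 to 7.40, and Atp6v0d2 at 4.76 against 2.79 to 3.11. In KEAP1-KO tumors of Experiment B, the first tumor was the lowest for Ctsk and for all 3. Of the osteoclast markers 4 had a row, with a summed count of 393 to 827 in cells, which lay mostly on Nfatc1 (mean of 8.72 in WT, 8.76 in KEAP1-KO and 9.49 in DKO cells). Acp5 had no reads in WT cells and means of 2.08 in KEAP1-KO and DKO cells, and Dcstamp had none in WT and DKO cells and a mean of 2.13 in KEAP1-KO cells. In tumors the sum was 591 to 884 in WT, 458, 369, 803 and 426 in KEAP1-KO A, 572 to 835 in KEAP1-KO B and 787 to 959 in DKO. KEAP1-KO tumor 3 was again the highest of its group, and the other 3 were below every WT tumor, which Ctsk was not. In the same 4 KEAP1-KO A tumors, fibroblast markers summed to 1961, 2248, 4776 and 2247. Neutrophil markers summed to 386, 303, 111 and 319, and macrophage markers to 3774, 4196, 3687 and 4525. In KEAP1-KO B the fibroblast sums were 2920, 3527, 2811 and 2949, so the first tumor was not the lowest. The part of osteoclast-like or other host cells in the spread of Ctsk was not tested.

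**Figure D4:**
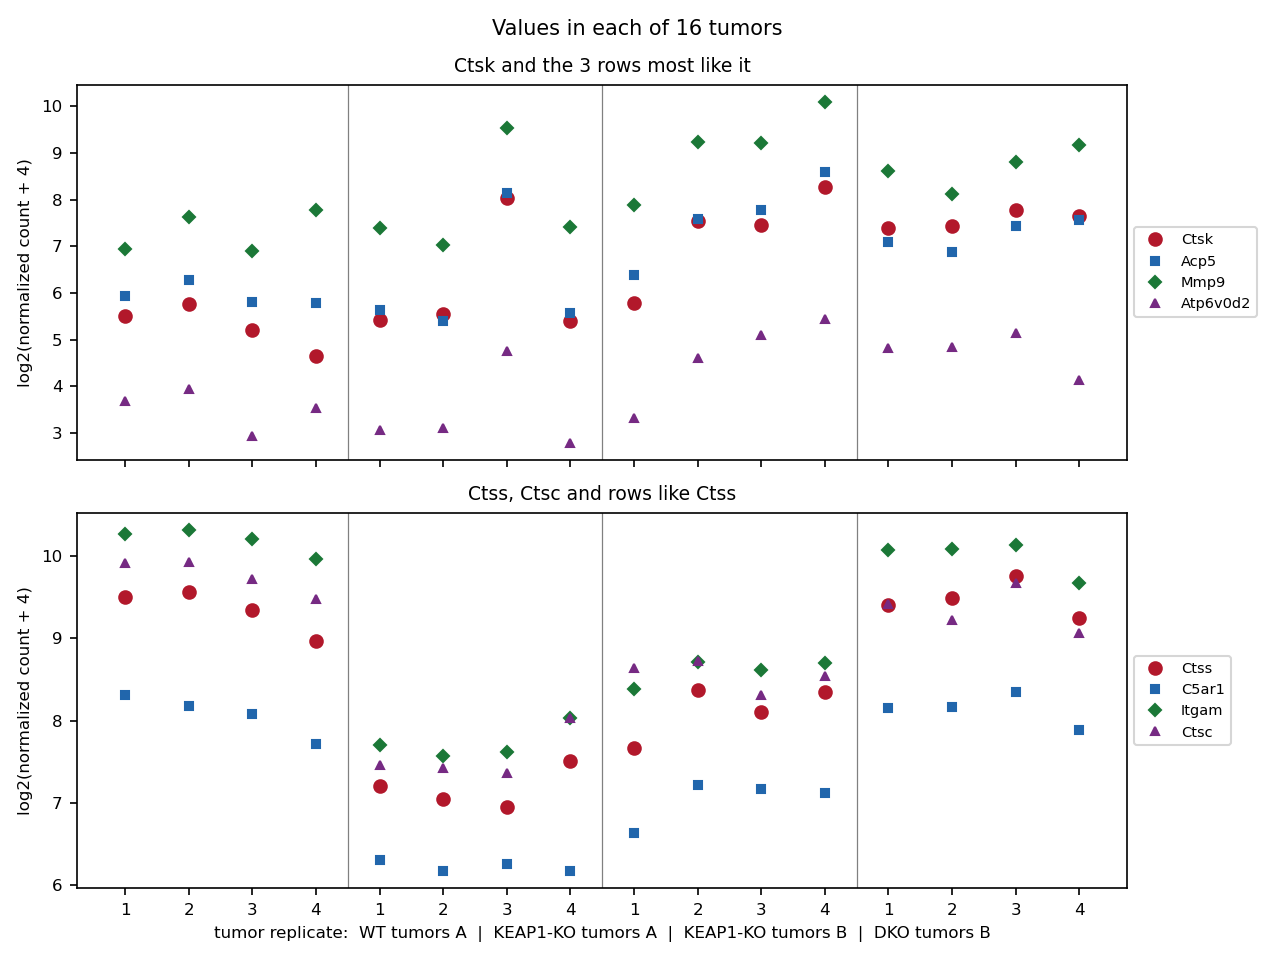
Ctsk with Acp5, Mmp9 and Atp6v0d2, and Ctss and Ctsc with C5ar1 and Itgam, in each of the 16 tumors as log2(normalized count + 4). Ctsk, Acp5, Mmp9 and Atp6v0d2 are highest of their group in KEAP1-KO tumor 3 of Experiment A (8.04, 8.13, 9.53 and 4.76).

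The remaining members had lower correlations with their closest rows: 0.889 for Ctsa (Edem3), 0.884 for Ctsb (Npepps), 0.804 for Ctsd (Hspb6), 0.852 for Ctsl (Epb41) and 0.889 for Ctsz (A930001C03Rik).

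Genes around the cathepsins were read from fixed lists. Of the cathepsin inhibitors, 6 were tested in tumors. In KEAP1-KO against WT tumors of Experiment A, 3 were higher, namely Cst6 (1.58), Stfa1 (1.31) and Cstb (0.65), and Serpina3g was lower (-1.78). In DKO against KEAP1-KO tumors 4 of 6 were lower, namely Stfa1 (-1.38), Cst6 (-1.29), Serpinb6a (-0.62) and Cstb (-0.31), and none was higher. In cells, 3 of 3 inhibitors tested were higher in KEAP1-KO than in WT cells, with Cst6 at 1.81, Cstb at 0.78 and Serpinb6a at 0.31. The same 3 were lower in DKO than in KEAP1-KO cells, at -1.75, -0.73 and -0.37. The median difference of the list in KEAP1-KO against WT cells was 0.78, beside 0.02 over all rows. Stfa1 and Serpina3g belong to families of near-identical copies between which reads could be divided, and their values are uncertain.

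Of 8 processing enzymes and partners, Cd74, the invariant chain that Ctss cuts, was lower in KEAP1-KO tumors by -3.28 and Ifi30, a thiol reductase of antigen processing, by -0.52, while Neu1, the neuraminidase held by Ctsa, was higher by 0.81. Cd74 was higher in DKO than in KEAP1-KO tumors by 1.43, the only call of this list there. In cells Psap (0.65), Scpep1 (0.50) and Ifi30 (0.45) were higher with the KEAP1 deletion, 3 of 5 tested. Of the 6 genes for sorting to lysosomes, Sort1 (-1.34), Nagpa (-0.86) and the mannose 6-phosphate receptor Igf2r (-0.86) were lower with the KEAP1 deletion in Experiment A, and the other receptor M6pr was higher (0.30). In DKO against KEAP1-KO tumors Igf2r (1.03) and Nagpa (0.65) were higher and M6pr lower (-0.37).

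Among 23 other lysosomal hydrolases tested, 4 were lower in KEAP1-KO tumors than in WT tumors, among them Gm2a (-2.17), Man2b1 (-0.56) and Arsa (-0.46), and Hexa was higher (0.46), beside 7.49% of all rows lower and 5.61% higher. In DKO against KEAP1-KO tumors Naglu (0.85), Man2b1 (0.82), Gm2a (0.80) and Arsa (0.72) were higher and Npc2 lower (-0.44). Of 12 membrane genes, Laptm5, of the lysosomes of blood cells, was lower in KEAP1-KO tumors (-1.99) and Atp6v1h higher (1.05), and in the second comparison Laptm5 (0.83) and Laptm4a (0.52) were higher. None of the 4 regulators of lysosomal genes tested passed in either tumor comparison. Ctso, a further cathepsin and the 1 of 13 others tested, differed by -0.06 in the first comparison and was higher by 0.99 in the second.

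**Figure D5:**
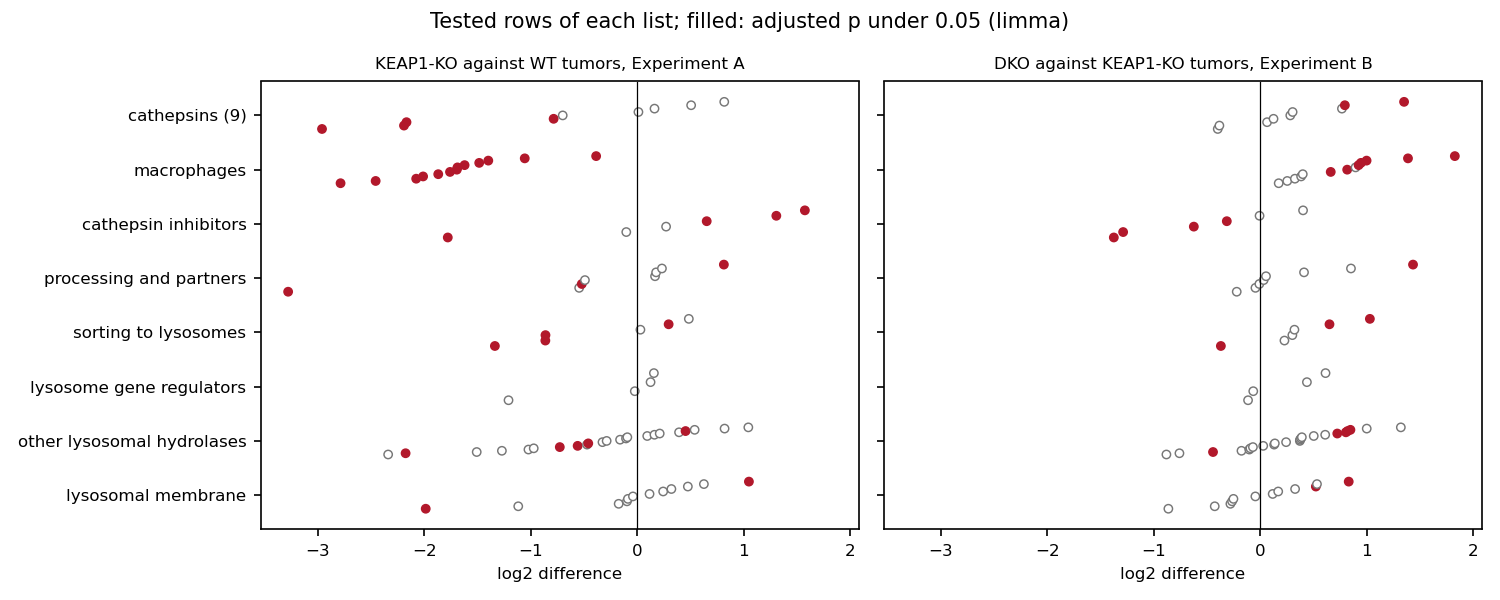
Log2 differences of the rows of each lysosomal gene list, of the 9 cathepsins and of the macrophage markers in KEAP1-KO against WT tumors of Experiment A and in DKO against KEAP1-KO tumors of Experiment B. Each point is a row tested, and filled points passed an adjusted p of 0.05 by limma. Cd74 at -3.28 and Gm2a at -2.17 are the lowest called points of their lists in the first comparison, and Cst6 at 1.58 is the highest of the inhibitors.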

How the data were processed

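Libraries of ribosomal-RNA-depleted, strand-specific RNA from 12 cell and 16 tumor samples were quantified by the authors with Salmon against GENCODE mouse transcripts. The deposited values are log2 values, log2(normalized count + 4): reads on a row divided by 1 factor per library, from which whole reads were recovered for 100% of low values in each library (tolerance 0.1). The methods speak of TPM, which these values are not. An RNA protocol naming liver in the labels goes against the sample titles, which were followed. The genome build was not given in the sources used here.

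A row entered the fits if 4 or more libraries had 5 or more normalized counts. The tests were made with limma 3.58.1 (R 4.3.3, trend) fitted on the 16 tumors, the 12 cell libraries or all 28, with Benjamini-Hochberg adjustment over all rows tested and a threshold of 0.05, in 13 comparisons. Fits were checked on simulated data. Rows were named by GENCODE vM21, which held 97.0% of the transcript identifiers, and promoters came from RefSeq. Totals over all rows of a gene were added after seeing the data. Counting intervals (95%) cover counting error only.

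The members and gene lists were chosen with earlier results of these data known. All members were named, with the list genes that had the highest and lowest differences among those called, Keap1, Nfe2l2, Nqo1 and Ptprc as checks, and the 3 rows most like each member. A few genes of the lists are not reported here. Genes singled out beside these were chosen after their values were seen. Same-numbered libraries of 2 groups did not deviate together (r of -0.03 to 0.03), and mice cannot be assigned from the labels. Alternatives were a pseudocount of 1, no filter, quantile normalization, median centring, limma-voom on the recovered reads, a replicate block and leaving out each library.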

Additional observations from a re-analysis of the deposited data

Results flagged for a closer look

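Ctsk in the third KEAP1-KO tumor of Experiment A (8.04, 269 reads) lay far above the other libraries of its group, of which the nearest was at 5.55. Ctsc in the fourth KEAP1-KO tumor of Experiment A (8.03, 264 reads) lay above the rest, with the nearest at 7.46. Near the floor of 2, a library with 1 or 2 reads stood apart from libraries without any: Ctsc in DKO cells (2.34), Ctsh in WT cells (2.65), Ctss in WT cells (2.62) and Ctss in KEAP1-KO cells (2.29). The gap between the extreme library and its neighbour was set against Dixon's critical value in 59 sets of a member and a group. For continuous values chance alone marks about 1 in 20 such sets. Where a single library had reads, the gap equals the range and a flag is fixed in advance. The flags near the floor are therefore no test.

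The KEAP1 difference in tumors minus that in cells passed the interaction test of limma over 28 libraries for Ctsz (-0.40, adjusted p = 0.0022, and 0.10 after median centring). The same term passed for Ctsc (-2.01), Ctsh (-2.80) and Ctss (-2.08), and the NRF2 co-deletion term for Ctss (1.42). Ctsc, Ctsh and Ctss had almost no reads in cells, so that a fall, or a rise of a few reads, could not be seen there at this depth. For these 3 genes the terms restate the tumor differences and do not show that the genotype acts otherwise in cells, and with limma-voom none of them passed (adjusted p of 0.85, 0.69 and 0.77, and 0.81 for the NRF2 term).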

How the results depend on the processing

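With 1 library left out, 940 of 984 values stayed on their side of the threshold, 36 of them uncalled values that took the other sign, 40 lost a call, 4 gained one and none that was called reversed. Of 663 values under the other alternatives 607 stayed on their side, 13 of them uncalled values with the other sign, 39 lost a call, 12 gained one and 5 reversed. In KEAP1-KO against WT tumors the calls of Ctsc, Ctsh and Ctss stood under every alternative run, as did those of Ctsc and Ctss in DKO against KEAP1-KO tumors. Except where stated, the cause of a change was not tested. The cell rows of Ctsc, Ctsd, Ctsh and Ctss are limited by depth.

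The number of cathepsins called changed as follows. In KEAP1-KO against WT tumors it went from 4 to 3, by the loss of Ctsa, without a filter, with quantile normalization, centring and the replicate block, and to 5 with gene totals, which called Ctsb higher (0.34, adjusted p = 0.015). In DKO against KEAP1-KO cells it went from 1 to 0 with a pseudocount of 1, without a filter, with quantile normalization, with median centring and with the replicate block. In DKO against WT cells it went from 2 to 1 without a filter, with quantile normalization, centring, voom, the replicate block and gene totals. KEAP1-KO tumors B against A went from 2 to 0 without a filter and with voom. DKO against WT tumors went from 1 to 2 with quantile normalization and with gene totals, and KEAP1-KO against WT cells from 1 to 2 with gene totals. The KEAP1 interaction went from 4 to 1 with voom, to 3 with a pseudocount of 1 (without Ctsh) and with centring (without Ctsz), and to 5 with gene totals, which called Ctsb, and the NRF2 interaction from 1 to 0 with voom and to 3 with gene totals. Against cells, the count in WT went from 9 to 7 with centring and to 8 with voom and gene totals, in KEAP1-KO A from 7 to 6 with centring and voom, and in KEAP1-KO B and DKO from 6 to 5 with voom and to 7 with gene totals. Where counts against cells stayed equal, members could change: in KEAP1-KO A, KEAP1-KO B and DKO quantile normalization lost Ctsd and gained Ctsz. With each library left out in turn, the counts ranged from 3 to 4 in KEAP1-KO against WT tumors, 2 to 3 in DKO against KEAP1-KO tumors, 0 to 2 in KEAP1-KO tumors B against A, 1 to 2 in DKO against WT tumors, 0 to 1 in DKO against KEAP1-KO cells, 1 to 2 in DKO against WT cells, 1 to 2 in the NRF2 interaction, and, against cells, 8 to 9 in WT, 6 to 7 and 5 to 6 in KEAP1-KO tumors A and B.

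Ctsz against cells turned from -0.09 to 0.47 in KEAP1-KO tumors A and from -0.08 to 0.51 in KEAP1-KO tumors B with quantile normalization, and from 0.31 to -0.087 in WT and from 0.004 to -0.36 in DKO with median centring, which shift the medians of the libraries by construction. The KEAP1 interaction of Ctsb turned from 0.09 to -0.45 with gene totals, which add Ctsb-202. The replicate block could be fitted within an experiment and between cell lines, and besides Ctsb in DKO against KEAP1-KO cells (adjusted p = 0.076) and against WT cells (0.066) it ended the call of Ctsa in KEAP1-KO against WT tumors. Deviations of WT and DKO cells with the same number correlated best with each other, but at an r of only 0.011 to 0.033. The labels do not say that these libraries are pairs.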

Other observations

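In cultured cells, where no host cells are present, a few other lysosomal genes differed between the lines. In KEAP1-KO against WT cells, Hexa, a subunit of beta-hexosaminidase, was higher by 0.85 and Arsa, arylsulfatase A, by 0.29, while Naglu, which degrades heparan sulfate, was lower by -0.27, 3 of 18 hydrolases tested, close to the 15.5% of all rows called. In DKO against KEAP1-KO cells Naglu (0.74), Man2b1 (0.61) and Arsa (0.33) were higher and Hexa (-0.30) lower. The sorting receptor Sort1 was higher in KEAP1-KO than in WT cells by 1.39 and lower in DKO than in KEAP1-KO cells by -0.91, whereas in tumors of Experiment A its KEAP1-KO difference was -1.34. In DKO against WT cells Mitf and Mcoln1, 2 of the regulators of lysosomal genes, were lower by -0.78 and -0.56, and none of the 3 inhibitors tested passed by limma.

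In WT tumors against WT cells 12 of 23 hydrolases were higher and none lower, among them Gm2a (6.05) and Arsa (1.72), beside 38.8% of all rows called in either direction. Laptm5 was higher by 7.46, Cd74 by 7.10 and Lgmn, the legumain that processes cathepsin precursors, by 2.37.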
